A study of Mus musculus with 8 samples.

Results

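The genes described here are the numbered Zfp genes, most of which encode zinc finger proteins, that C2C12 cells expressed with and without Atad2. A gene was taken when its symbol was Zfp followed only by digits and its mean over 8 libraries exceeded 8 on the deposited log2(normalized count + 1) scale. Of 346 such symbols among 35976 genes in the table, 255 met the rule, 55 had a mean above 3 and up to 8, and 36 had a mean up to 3, of which 16 were at 0 in every library. The mean levels that chose the genes ran over 8.04 to 14.3 and are a description only. Just inside the limit lay Zfp423 (8.04), Zfp85 (8.10) and Zfp420 (8.12), and just outside it Zfp931 (7.99), Zfp94 (7.98) and Zfp810 (7.98). Of the 255 genes, 251 exceeded 8 in both groups, 2 only in the Atad2 shRNA group and 2 only in the control group.

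C2C12 is a mouse skeletal muscle myoblast line. In the series 4 libraries came from cells transfected with an shRNA against Atad2, a chromatin-bound ATPase with a bromodomain, and 4 from cells given a non-targeting shRNA, with RNA taken 48 h later. The series sought Atad2's part in myogenesis and autophagy, and its labels name no other allele, agent or clone. Separate cultures are not stated for the libraries of a group, nor is the number of shRNA sequences, so p-values reflect the spread among libraries, which may be technical. In bulk RNA, fewer cells of a type and less RNA per cell cannot be told apart.

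Each Atad2 library held 50.3 to 72.3 Mreads (mega, prefix M) and each control library 61.4 to 73.0 Mreads, as recovered from the values. A gene without reads in a library thus lay below 0.0411 to 0.0596 RPM (3 reads of the total), which covers counting error only. Atad2 itself lay at 11.87, 11.77, 12.05 and 12.05 in the Atad2 libraries and at 14.66, 14.74, 14.67 and 14.61 in the control libraries. Of 8 myoblast markers, 3 were higher (Des, Myod1 and Itga7) and 5 lower (Pax7, Myf5, Cdh15, Chrna1 and Vcam1), with a median log2 change of -0.22, and Myf5 averaged 8.26 in the Atad2 group and 9.54 in the control group. Pax7 was barely detected, with 0 to 12 reads per Atad2 library and 19 to 41 per control library. For scale, 30.8% of all genes tested were higher and 29.6% lower. Of 4 fibroblast markers tested, Pdgfra, Dcn and Col1a1 were higher and Col1a2 lower, and the list's summed level, 14.31 to 14.63 in the Atad2 libraries and 14.85 to 14.98 in the control libraries, was mostly Col1a2 (14.03 in the Atad2 group, 14.81 in the control group). Of 2 macrophage markers tested, Cd68, at 9.095 in the Atad2 group and 7.92 in the control group, was higher and made up most of the summed level (9.10 to 9.41 in the Atad2 libraries, 7.91 to 8.24 in the control libraries), and Csf1r did not pass. The 1 adipocyte marker tested, Fabp4, was lower (log2 change -1.80 ± 0.45, adjusted p = 0.0016). It had few reads, 4 to 15 per Atad2 library and 29 to 43 per control library. The 2 endothelial markers tested, Kdr and Tek, did not pass. The fibroblast markers Thy1 and Lum, the macrophage marker Adgre1 and the adipocyte markers Adipoq and Lep were at 0 in all 8 libraries. The part of these shifts in the results below was not tested.

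Most Zfp proteins carry arrays of C2H2 zinc fingers, each a loop that holds a zinc ion and reads a short stretch of DNA. In tetrapods the largest class adds a KRAB box, which binds the scaffold TRIM28 and through it the histone methyltransferase SETDB1 and heterochromatin proteins. Many KRAB proteins silence transposable elements, and their genes lie in clusters that grew by duplication. Zfp genes without a KRAB box are more varied and include sequence-specific activators and repressors, RNA-binding proteins and ribosome factors.

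Expression of the Zfp genes moved in many genes and by little. With limma on the whole table (adjusted p under 0.05), 74 of the 255 genes had more transcript with the Atad2 shRNA (29.0%) and 44 had less (17.3%), while 137 did not pass. Over all 14703 genes tested, 30.8% were called higher and 29.6% lower. Over the 10233 other genes with a mean above 8, 40.0% were called higher and 26.9% lower. The groups' libraries did not overlap for 98 of the Zfp genes (38.4%), 64 of them higher and 34 lower, against 60.0% of the other genes above 8. The median log2 fold change, Atad2 over control shRNA, was 0.05 for the Zfp genes and 0.05 for the other genes, and the median absolute change was 0.15 and 0.19. A call with a change of at least 2-fold was met by 1 Zfp gene, Zfp703 (0.392%), and by 3.48% of the other genes. Of the 118 Zfp genes called, 47 changed by less than 0.25 on the log2 scale and 14 by 0.5 or more, 5 higher and 9 lower. The 14 include Zfp423 and Zfp13, each with a mean above 8 in only 1 group. These sizes were not counted over other genes and are a description only.

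Weak genes are measured less precisely and, on the deposited scale, weak genes of any kind fell more often, so the other genes were also weighted to the Zfp genes' levels. Weighted in this way, 30.0% of other genes were higher, close to the 29.0% of the Zfp genes, and 32.2% were lower, against 17.3% of the Zfp genes. Their median log2 fold change was -0.03, against 0.05 for the Zfp genes, and after quantile normalization 0.01 against 0.08. As deposited, their median absolute change was 0.23, with a median SE of 0.07 as for the Zfp genes, and 5.14% were called at 2-fold. In each of the 5 level bands the share of Zfp genes called lower was smaller than that of other genes. Between 8 and 9, 25.0% of 48 Zfp genes and 43.4% of 843 other genes were lower. Above 12, 0 of 28 Zfp genes and 20.1% of 3682 others were lower, while 21 Zfp genes (75.0%) and 54.3% of the others were higher. After quantile normalization the weighted shares were 36.9% higher and 16.9% lower for the Zfp genes and 31.1% and 29.3% for the other genes. There the band from 11 to 12 came out nearly even for the Zfp genes, at 27.0% higher and 29.7% lower, beside 33.3% and 31.6% of the other genes. These shares are descriptions without a test.

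**Figure D1:**
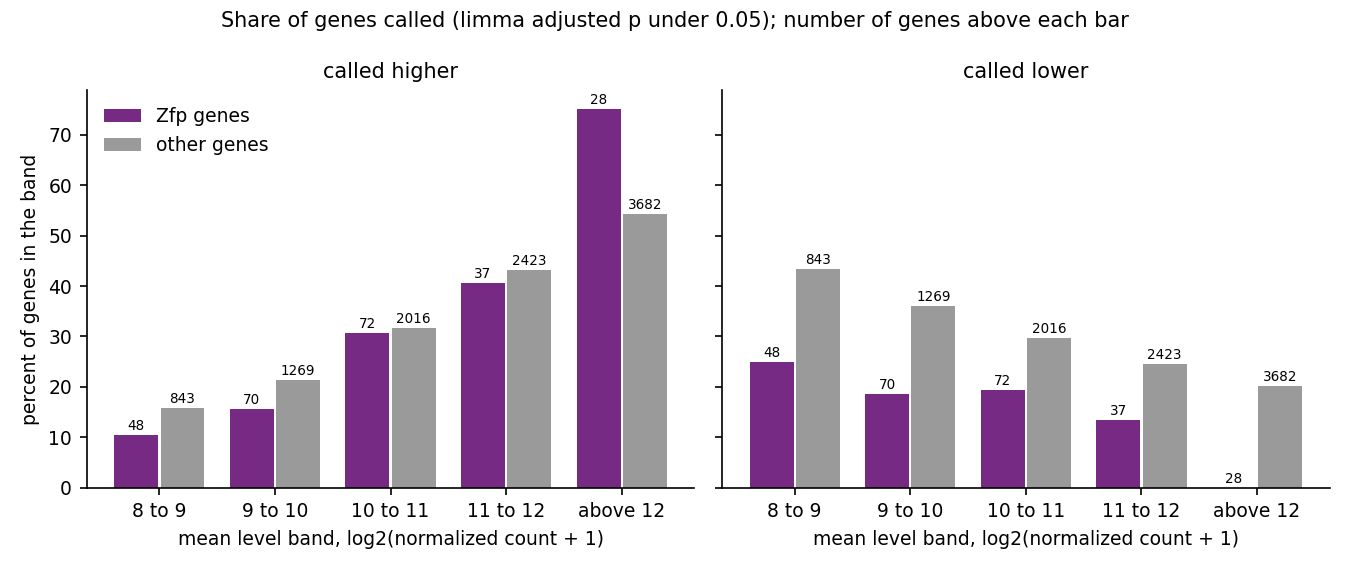
Share of genes called higher (left panel) and lower (right panel) with the Atad2 shRNA, in percent (y axis), by band of mean level (x axis), for Zfp genes (purple) and all other genes (grey), from the deposited values; the number of genes stands above each bar. The purple bars are below the grey bars in all 5 bands of the right panel, with 0 of 28 Zfp genes lower above a level of 12; after quantile normalization 4 of those 28 were lower.

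The largest increase and the second largest decrease belonged to a pair of paralogs. Zfp703 (chromosome 8, 26977325 to 26981461, plus strand, GRCm38, protein-coding) and Zfp503 (chromosome 14, 21983959 to 21989601, minus strand) encode the NET family proteins, corepressors that act in development with an atypical zinc finger, and neither matched the C2H2 pattern searched. Zfp703 lay at 13.77, 13.80, 13.75 and 13.70 in the Atad2 libraries and at 12.72, 12.62, 12.63 and 12.67 in the control libraries. All 4 Atad2 libraries were higher, by 1.09 ± 0.03 (SE) on the log2 scale or 2.13-fold (adjusted p = 1.9e-16). Zfp503 lay at 11.07, 11.16, 11.09 and 11.21 in the Atad2 libraries and at 11.98, 11.95, 11.98 and 12.06 in the control libraries. Here all 4 Atad2 libraries were lower, by -0.86 ± 0.04 on the log2 scale (adjusted p = 5e-13). Per kilobase of transcript, Zfp703 averaged 3220 normalized counts and Zfp503 750.

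Among the other strong increases, 6 genes lacked a KRAB box. Zfp428 lay at 9.75, 9.91, 9.62 and 9.60 in the Atad2 libraries and at 9.004, 9.23, 8.98 and 8.83 in the control libraries, a log2 change of 0.71 ± 0.09 (adjusted p = 1.4e-06). Zfp423, a partner of EBF and SMAD proteins known for committing mesenchymal cells to the fat lineage, lay at 8.19, 8.34, 8.16 and 8.64 against 7.61, 7.88, 7.72 and 7.75 in the control libraries. Only its Atad2 group mean (8.33, against 7.74 in the control group) exceeded the limit of 8. Its groups did not overlap, but it was weak, with 221 to 343 reads per Atad2 library and 207 to 252 per control library (log2 change 0.59 ± 0.13, adjusted p = 6e-04). Zfp651 rose by 0.56 ± 0.07 on the log2 scale, to 10.79 in the Atad2 group against 10.23 in the control group. Zfp365, a centrosomal protein linked to genome stability, averaged 12.34 in the Atad2 group and 11.87 in the control group. Zfp740, with 2 matched fingers, lay at 12.81, 12.92, 12.81 and 12.89 in the Atad2 libraries and at 12.40, 12.38, 12.38 and 12.40 in the control libraries. The spread within each group was small beside its change of 0.47 ± 0.04 (adjusted p = 3.6e-10). Zfp706, a small protein that in mouse embryonic stem cells restrains self-renewal, rose by 0.50 ± 0.03 and had the highest level per length of the Zfp genes, 28600 normalized counts per kilobase. Of its 50-base windows, 38.9% also occur in other transcripts, most in Gm10193, so its reads may be split. The largest KRAB increase was that of Zfp930, at 10.50, 10.60, 10.58 and 10.40 in the Atad2 libraries and 9.97, 10.07, 10.25 and 10.10 in the control libraries (log2 change 0.42 ± 0.07).

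Of the 12 largest decreases without overlap between groups, 7 were in genes with a KRAB A box, which 130 of the 255 genes had, and Zfp808 headed the list. It lay at 8.20, 8.30, 8.47 and 8.04 in the Atad2 libraries and at 9.13, 9.29, 9.36 and 9.20 in the control libraries, a log2 change of -0.99 ± 0.11 (adjusted p = 7.4e-08). Each Atad2 library held 227 to 329 of its reads and each control library 593 to 708. Zfp808 shares 46.4% of its 50-base windows with other transcripts, mainly its neighbour on chromosome 13, Zfp934, which was also lower (-0.32 ± 0.10), so the change of either alone is uncertain. Zfp950 on chromosome 19, with 17 matched fingers, lay at 9.89, 9.82, 10.11 and 9.75 in the Atad2 libraries and at 10.51, 10.77, 10.68 and 10.57 in the control libraries (-0.74 ± 0.08, adjusted p = 4.4e-08). The neighbours Zfp595 and Zfp458 on chromosome 13 fell by closely similar amounts. Zfp595 lay at 8.95, 9.02, 9.07 and 9.04 in the Atad2 libraries, against 9.67, 9.62, 9.76 and 9.50 in the control libraries (-0.62 ± 0.08). Zfp458 lay at 8.61, 8.52, 8.995 and 8.66 in the Atad2 libraries, against 9.30, 9.34, 9.45 and 9.13 in the control libraries (-0.61 ± 0.11). These genes had few reads, at most 541 per Atad2 library for Zfp595 and 426 for Zfp458.

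Zfp40, Zfp873 and Zfp605 were the other KRAB genes among these decreases, with log2 changes of -0.54 ± 0.08, -0.53 ± 0.13 and -0.47 ± 0.07. Without a KRAB A box at the limit used, Zfp329 lay at 8.91, 8.85, 9.25 and 9.27 in the Atad2 libraries and at 9.81, 9.85, 9.93 and 9.78 in the control libraries (-0.77 ± 0.09, adjusted p = 5.2e-07). Zfp13 lay at 7.32, 7.90, 7.88 and 8.25 in the Atad2 libraries and at 8.85, 8.40, 8.51 and 8.58 in the control libraries (-0.75 ± 0.16). Its Atad2 libraries were widely spread, and its best window matched 66.7% of the KRAB positions, just under the limit of 70%. For Zfp13 and Zfp775 only the control group mean exceeded the limit of 8. Zfp775 and Zfp956 completed the 12 with changes of -0.49 ± 0.14 and -0.45 ± 0.11. Of the 12, Zfp775 did not pass after quantile normalization (adjusted p = 0.21) and the other 11 did.

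**Figure D2:**
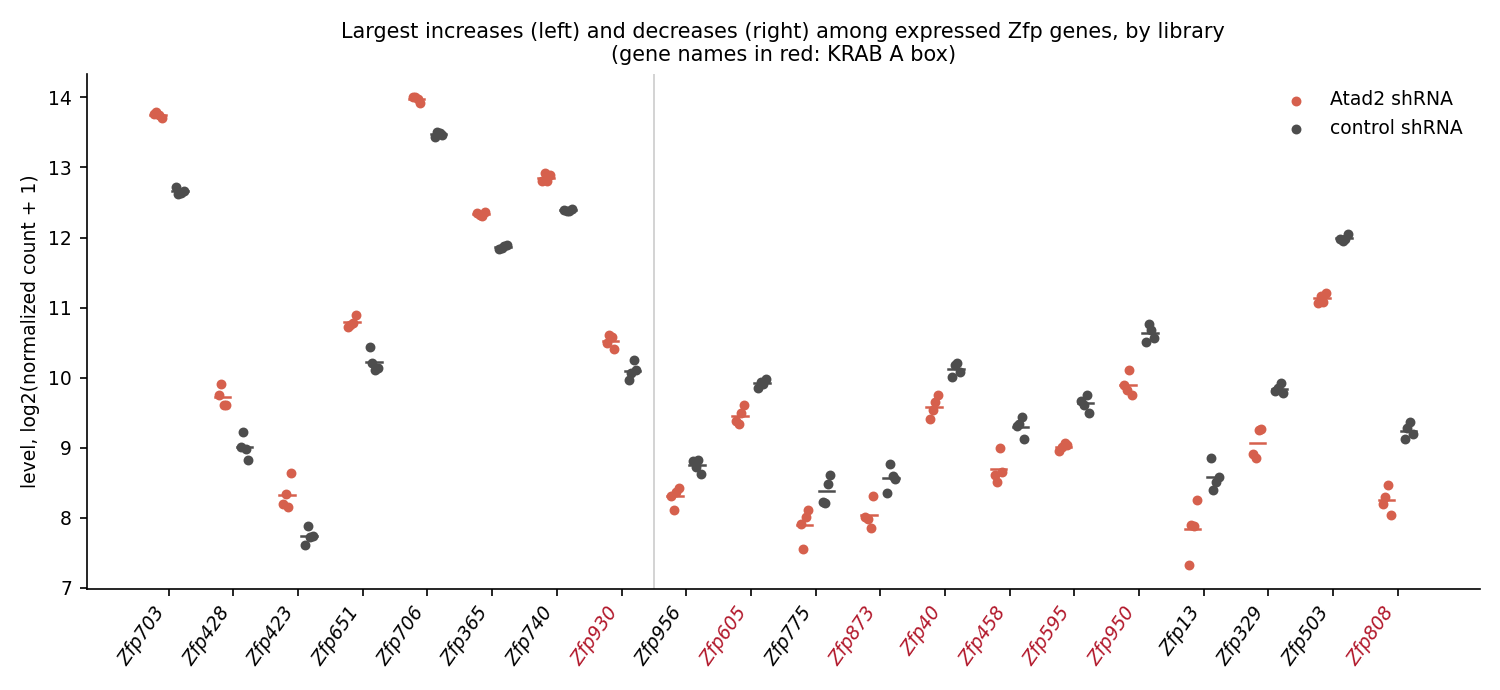
Levels in log2(normalized count + 1) (y axis) of the 8 largest increases and 12 largest decreases among the 255 Zfp genes (x axis), with a point per library and a line at each group mean, Atad2 shRNA in red on the left of each gene and control shRNA in dark grey on the right. Zfp703 stands at 13.70 to 13.80 against 12.62 to 12.72, and 7 of the 12 decreases carry the red names of KRAB genes.

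The starts of these genes are shown because the KRAB and the other genes differed in promoter letters, a feature the choice of genes did not use. RefSeq gives a window of 250 bases before to 50 after the start (GRCm38.p6) for 209 of the 255 genes, of which 112 had a KRAB A box and 97 did not. The median window held 11 CG pairs in KRAB genes, 19 in the other Zfp genes and 22 in other genes above 8. The GC box GGGCGG, on either strand, stood in 36.6% of KRAB windows, 55.7% of the other Zfp windows, 69.1% of windows of other genes above 8 and 35.9% of all 27025 windows listed. The CCAAT box ran the other way, in 55.4%, 41.2%, 39.0% and 37.9% of the same sets. The 8 bases found in most KRAB windows were CCAATCAG, which contains the CCAAT box, in 26 of 112 (23.2%), beside 5.15% of the other Zfp windows and 4.31% of all windows. The commonest 12 bases were ACTACATTTCCC, in 15 KRAB windows (13.4%), 5 other Zfp windows and 0.57% of all windows. Both words were picked as the commonest in KRAB windows, so their higher share there is fixed by that choice.

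The promoter windows below, read 5′ to 3′ on the gene's strand, are of 4 KRAB genes that fell and of Zfp740, which rose. Capitals mark matches of the GC box, the CCAAT box, the 8-base and the 12-base word, the E box CACGTG and the AP-1 site TGANTCA, on either strand. They lie at chr13:62129640-62129939 (plus strand) for Zfp808, chr19:61140791-61141090 (minus) for Zfp950, chr13:67332511-67332810 (minus) for Zfp595, chr13:67268945-67269244 (minus) for Zfp458 and chr15:102203750-102204049 (plus) for Zfp740. The Zfp458 window lies inside the gene as annotated by GENCODE (67254918 to 67278466), so the RefSeq start used is not that annotation's outermost start.
Zfp808: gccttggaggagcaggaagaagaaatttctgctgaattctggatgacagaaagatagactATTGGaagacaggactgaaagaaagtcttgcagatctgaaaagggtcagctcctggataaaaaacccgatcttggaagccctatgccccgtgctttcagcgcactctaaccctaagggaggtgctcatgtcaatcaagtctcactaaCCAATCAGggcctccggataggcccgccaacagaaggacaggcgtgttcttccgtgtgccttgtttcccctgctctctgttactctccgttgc
Zfp950: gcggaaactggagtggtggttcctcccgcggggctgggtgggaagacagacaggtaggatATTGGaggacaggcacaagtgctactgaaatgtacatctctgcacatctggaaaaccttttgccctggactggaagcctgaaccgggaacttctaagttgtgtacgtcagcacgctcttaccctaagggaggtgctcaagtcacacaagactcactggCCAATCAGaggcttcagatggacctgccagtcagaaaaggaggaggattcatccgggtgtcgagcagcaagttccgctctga
Zfp595: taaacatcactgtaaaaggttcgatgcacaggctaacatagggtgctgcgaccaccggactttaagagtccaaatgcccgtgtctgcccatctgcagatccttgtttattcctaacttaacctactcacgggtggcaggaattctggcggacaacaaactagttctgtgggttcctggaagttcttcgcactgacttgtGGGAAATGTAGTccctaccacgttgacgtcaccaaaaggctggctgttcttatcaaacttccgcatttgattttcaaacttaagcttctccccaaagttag
Zfp458: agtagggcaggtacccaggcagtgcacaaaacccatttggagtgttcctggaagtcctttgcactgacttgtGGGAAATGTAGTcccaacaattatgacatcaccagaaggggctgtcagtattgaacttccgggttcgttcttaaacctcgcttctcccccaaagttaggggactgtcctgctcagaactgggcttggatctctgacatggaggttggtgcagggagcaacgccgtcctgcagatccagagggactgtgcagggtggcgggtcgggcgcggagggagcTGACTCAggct
Zfp740: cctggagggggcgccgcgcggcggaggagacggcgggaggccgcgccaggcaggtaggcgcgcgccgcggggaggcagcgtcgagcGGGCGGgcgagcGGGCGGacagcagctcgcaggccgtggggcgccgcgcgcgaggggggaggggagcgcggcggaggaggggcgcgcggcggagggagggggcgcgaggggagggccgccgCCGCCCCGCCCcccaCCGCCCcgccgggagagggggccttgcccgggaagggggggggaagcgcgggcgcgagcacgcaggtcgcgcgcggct
In the windows of Zfp808 and Zfp950, the CCAATCAG word follows a run of 19 identical bases at nearly the same distance from the start, although the genes lie on different chromosomes. Over the best ungapped placement, 116 of 289 bases (40.1%) were identical. Zfp595 and Zfp458 both hold the 12-base word as its reverse complement, and Zfp740 holds 5 GC boxes and 54 CG pairs, against 8 to 10 CG pairs in Zfp808, Zfp950, Zfp595 and Zfp458. The windows are examples and do not stand for genes that rose or fell. Among the other named genes, Zfp365, which rose, held 8 CG pairs and Zfp428, which rose, 19 and 0 GC boxes, while Zfp775, which fell, held 24 CG pairs and 2 GC boxes. Over all Zfp genes, CCAATCAG stood in 31 of 209 windows (14.8%). By the calls as deposited, it stood in 5 of 59 windows of genes that rose (8.47%) and 10 of 34 of genes that fell (29.4%), without a test. KRAB genes, from whose windows the word was picked, made up 17 of the 59 and 25 of the 34, so class and direction are mixed in these shares. The 12-base word stood in 4 of 17 KRAB windows of genes that rose and in 4 of 25 of genes that fell, and CCAATCAG in 3 and 8 of the same windows. A match describes the letters and shows no binding.

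As deposited, genes with and without a KRAB A box moved differently, but the KRAB direction depended on how libraries were scaled. Of 130 KRAB genes, 21 rose (16.2%) and 31 fell (23.8%), with a median log2 change of -0.01 that ran over -0.02 to 0.01 when a library was left out. Without control replicate 3, where KRAB genes stood highest, 23 rose and 26 fell. Of the 124 without a KRAB A box, 53 rose (42.7%) and 13 fell (10.5%), with a median of 0.11. Zfp607, for which no coding sequence was read, was not classed. After quantile normalization 45 KRAB genes were higher and 25 lower, and after cyclic loess 44 were higher and 25 lower, so that the share of higher among KRAB calls was 64.3% and 63.8% in place of 40.4%. Of the genes without a KRAB A box, 49 were higher and 18 lower after quantile normalization, and 46 and 18 after cyclic loess. Median centring and limma-voom on recovered reads gave 21 and 22 KRAB genes higher and 32 and 33 lower, as the deposited scale did.

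The KRAB genes were the weaker class, with a median mean level of 9.64 against 10.79 for the other Zfp genes, and the scalings differ most at low levels. Between 8 and 9 the median change of other genes was -0.19 as deposited and 0.02 after quantile normalization. In that band 33 KRAB genes had medians of -0.02 and 0.18, and in the band from 9 to 10, 52 KRAB genes had medians of -0.01 and 0.11. Set beside other genes weighted to their levels, fewer KRAB genes were lower under each of these scalings: 23.8% against 35.1% as deposited, and 19.2% against 28.3% after quantile normalization. The share higher was 16.2% against 24.8% as deposited, but 34.6% against 30.2% after quantile normalization. For the Zfp genes without a KRAB A box, 42.7% were higher against 35.7% of level-weighted other genes and 10.5% were lower against 29.0%, and after quantile normalization the shares were 39.5% against 32.1% and 14.5% against 30.2%. Weighted to the KRAB genes' levels, 29.8% of the Zfp genes without a KRAB A box were higher and 13.6% lower as deposited. The table holds no spike-in and does not settle which scaling holds for weak genes.

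**Figure D3:**
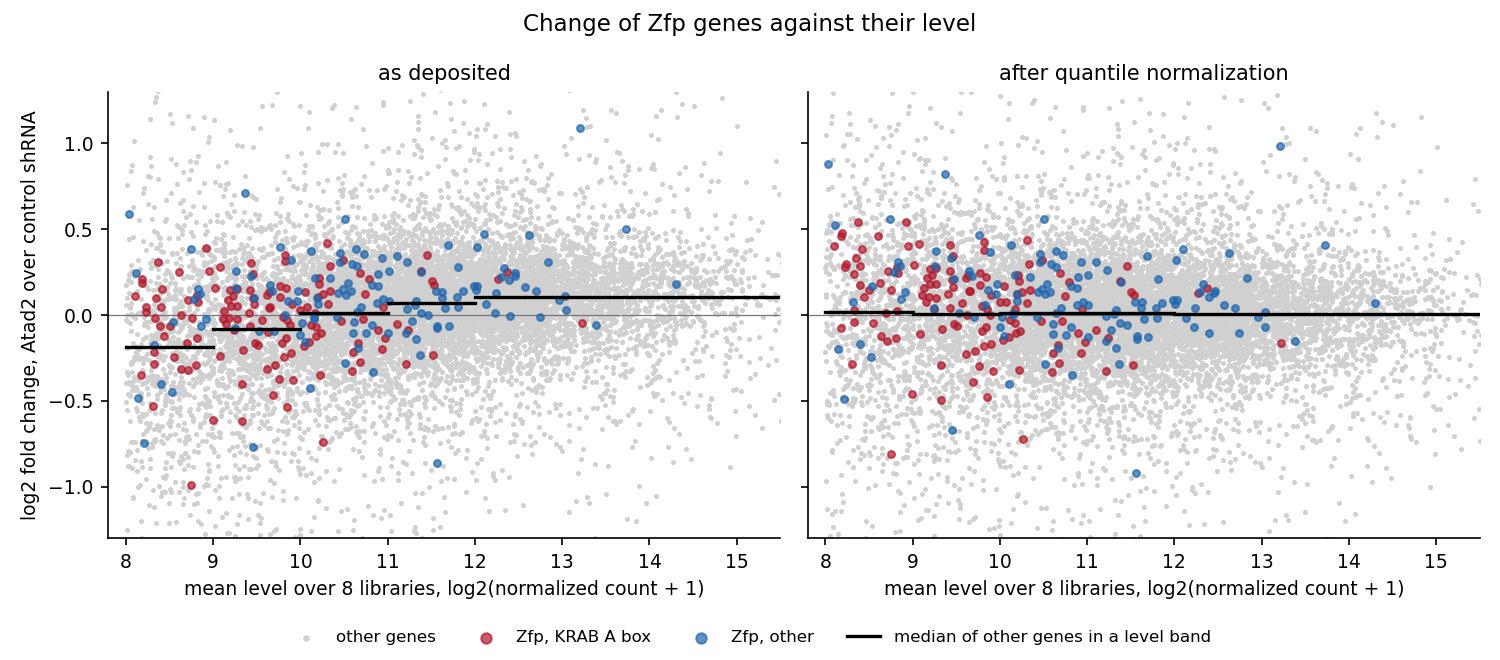
Log2 fold change, Atad2 over control shRNA (y axis, limited to the range of the Zfp genes), against mean level over 8 libraries (x axis), for Zfp genes with a KRAB A box (red), other Zfp genes (blue) and all other genes (grey), with black lines at the median of the other genes in each level band; left as deposited, right after quantile normalization. The black lines climb with level on the left, starting at -0.19 between 8 and 9, and lie near 0 on the right, where most weak KRAB genes stand above 0.

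**Figure D4:**
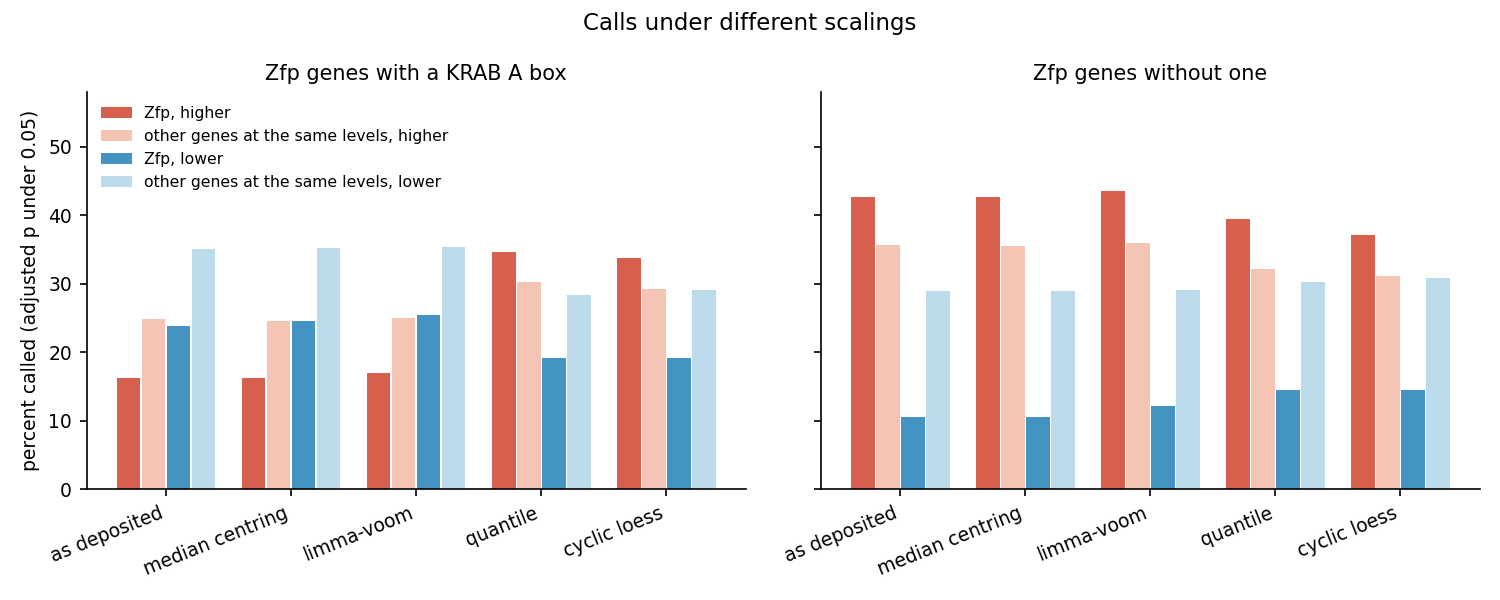
Percent of genes called higher (red shades) and lower (blue shades) on the y axis under 5 scalings on the x axis, for Zfp genes with (left panel) and without (right panel) a KRAB A box, each dark bar beside a pale bar for other genes weighted to the same levels. For KRAB genes the higher share is 16.2% as deposited and 34.6% after quantile normalization, while the dark blue bar stays below the pale blue bar under all 5 scalings shown.

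The classes also differed in sequence. KRAB genes had a median of 12 matched C2H2 fingers and 43.2% GC in their coding sequence, and the other Zfp genes 7 fingers and 54.8% GC. Among KRAB genes with a coding GC of up to 42%, 5 rose and 17 fell of 55, and of the 75 above it 16 rose and 14 fell. After quantile normalization these counts were 13 and 14 of 55, and 32 and 11 of 75. As deposited the 55 had 9.09% higher and 30.9% lower, beside 23.5% and 35.6% of other genes weighted to their levels. The 75 had 21.3% and 18.7%, beside 25.7% and 34.8%. After quantile normalization the weighted shares were 30.1% and 28.1% for the 55, and 30.3% and 28.5% for the 75. Other genes with coding GC up to 42% had 33.1% higher and 23.1% lower. Their levels were not matched, with a median of 11.33 against 9.65 for the 55. Of the 10 Zfp genes with a SCAN domain, which pairs proteins with each other, 3 were higher and 3 lower (30.0% each). Other genes weighted to the levels of all the Zfp genes had similar shares, 30.0% and 32.2%.

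Known KRAB proteins showed small changes in both directions. Zfp445 and Zfp57 protect imprinted genes from losing methylation in the mouse. Zfp445 lay at 12.41, 12.34, 12.40 and 12.35 in the Atad2 libraries and at 12.18, 12.20, 12.20 and 12.07 in the control libraries, so that all Atad2 libraries were higher (0.21 ± 0.04, adjusted p = 6.2e-05). Zfp57 lay at 9.74, 9.74, 9.95 and 9.73 in the Atad2 libraries and at 9.87, 9.90, 9.78 and 9.65 in the control libraries, and did not pass (-0.01 ± 0.08, adjusted p = 0.92). Zfp568, which in the mouse silences a placental transcript of Igf2, lay at 11.46, 11.52, 11.30 and 11.36 in the Atad2 libraries and at 11.71, 11.65, 11.60 and 11.59 in the control libraries (-0.23 ± 0.05, adjusted p = 3.8e-04). Zfp809, which silences Moloney leukaemia proviruses in mouse embryonic cells, lay at 9.61, 9.57, 9.84 and 9.75 in the Atad2 libraries and at 9.81, 10.01, 9.999 and 9.93 in the control libraries. It fell (-0.25 ± 0.08, adjusted p = 0.0078), although the groups overlapped. Zfp110, a partner of the neurotrophin receptor p75, fell by -0.29 ± 0.04 on the log2 scale with no overlap. Zfp871, the strongest KRAB gene, averaged 13.20 in the Atad2 group and 13.25 in the control group and did not pass (adjusted p = 0.26), but was called lower after quantile normalization (-0.16 ± 0.04, adjusted p = 0.0011) and cyclic loess (-0.15 ± 0.04, adjusted p = 0.0020).

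Of the partners of KRAB proteins, 33 genes of a list of TRIM28, SETDB1, NuRD and heterochromatin factors were tested, and 21 were higher and 3 lower, with a median log2 change of 0.16. That is 63.6% higher and 9.09% lower, beside 50.9% and 21.5% of other genes weighted to the list's levels. After quantile normalization 13 were higher and 8 lower (39.4% and 24.2%, beside 34.6% and 33.2%). Trim28 lay at 15.12, 15.11, 15.09 and 15.10 in the Atad2 libraries and at 14.75, 14.66, 14.71 and 14.77 in the control libraries (0.38 ± 0.03, adjusted p = 1e-09). Mphosph8, a subunit of the HUSH silencing complex, rose by 0.46 ± 0.04, Morc3, a chromatin ATPase, by 0.39 ± 0.04, and H3f3b, which encodes the histone variant H3.3, by 0.37 ± 0.04. Dnmt1 rose by 0.25 ± 0.03, Chd4 by 0.24 ± 0.03, Hdac2 by 0.275 ± 0.03 and Setdb1 by 0.17 ± 0.04. The lower genes were Trim24, a relative of Trim28 (-0.51 ± 0.05), Atf7ip, a partner of SETDB1 (-0.19 ± 0.03), and Cbx5, which encodes HP1 alpha (-0.09 ± 0.03). Atf7ip, Cbx5 and Setdb1 are named from that list after their values were seen.

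Several Zfp proteins act on RNA, ribosomes or the spindle. Zfp106, an RNA-binding protein whose loss causes neuromuscular degeneration in mice, had the highest mean level. It lay at 14.43, 14.41, 14.37 and 14.34 in the Atad2 libraries and at 14.25, 14.20, 14.21 and 14.17 in the control libraries (0.18 ± 0.03, adjusted p = 3.5e-05). Zfp598, the ubiquitin ligase that senses collided ribosomes, lay at 12.65, 12.56, 12.57 and 12.49 in the Atad2 libraries and at 12.36, 12.31, 12.38 and 12.32 in the control libraries (0.23 ± 0.04). Zfp622, a maturation factor of the large ribosomal subunit, rose by 0.21 ± 0.04, and Zfp593, which acts in the same pathway, did not pass (0.08 ± 0.07, adjusted p = 0.29). Zfp207, the spindle protein BuGZ, did not pass (-0.06 ± 0.03, adjusted p = 0.13), nor did Zfp36, the CCCH-finger protein tristetraprolin that speeds decay of AU-rich messages (-0.06 ± 0.06, adjusted p = 0.39). Zfp451, a SUMO ligase (0.07 ± 0.04), and Zfp91, a ubiquitin ligase of non-canonical NF-kappa-B signalling (-0.01 ± 0.03), did not pass. Zfp638, a splicing and chromatin factor, was called higher by 0.09 ± 0.03 (adjusted p = 0.036), but not without Atad2 replicate 1, 2 or 3 or control replicate 1 or 4. After cyclic loess Zfp106 was just past the limit (adjusted p = 0.05008), and after quantile normalization Zfp207 and Zfp91 were called lower.

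Zfp transcription factors and chromatin proteins without a KRAB box mostly rose or did not pass. Zfp384, a binder of A-rich stretches in collagen and matrix protease promoters, lay at 12.24, 12.29, 12.18 and 12.18 in the Atad2 libraries and at 11.80, 11.81, 11.84 and 11.85 in the control libraries. Its groups lay far apart (0.40 ± 0.04, adjusted p = 1.4e-08). Zfp131 rose by 0.28 ± 0.05, Zfp609 by 0.27 ± 0.04 and Zfp143, an activator at promoters of small nuclear RNA and many housekeeping genes, by 0.22 ± 0.06. Smaller increases were those of Zfp664 (0.17 ± 0.04), Zfp644, a partner of the methyltransferase G9a (0.16 ± 0.04), Zfp462 (0.14 ± 0.03), Zfp335, a partner of H3K4 methyltransferase complexes (0.14 ± 0.04), Zfp148 (0.11 ± 0.03) and Zfp318 (0.11 ± 0.04). None of the 6 passed after quantile normalization. Zfp217, a corepressor that binds CtBP, and Zfp281, which restrains pluripotency genes, did not pass, at -0.06 ± 0.04 and 0.05 ± 0.04. Zfp292, at 0.03 ± 0.04, Zfp687, at -0.04 ± 0.05, and Zfp260, at -0.0012 ± 0.04, did not pass either. The remaining genes of the list of known roles, Zfp275, Zfp277, Zfp608, Zfp655, Zfp768, Zfp830 and the KRAB gene Zfp667, did not pass, with log2 changes of -0.09 to 0.12. Zfp217, Zfp275 and Zfp655 were called lower after quantile normalization and cyclic loess, with adjusted p of 0.014 to 0.030.

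The Zfp genes are unevenly placed in the genome, with 63 on chromosome 7, 34 on chromosome 17 and 21 on chromosome 13. Groups of at least 5 of them with gaps of at most 500 kb formed 10 clusters holding 89 genes, of which 19 rose and 16 fell, beside 55 and 28 of 165 outside. As shares, 21.3% in clusters rose and 18.0% fell, beside 26.2% and 34.3% of other genes weighted to their levels. Outside, 33.3% rose and 17.0% fell, beside 32.2% and 31.0%. After quantile normalization 34.8% in clusters were higher and 18.0% lower, beside 30.5% and 28.6%. Outside, these shares were 38.2% and 16.4%, beside 31.5% and 29.6%. The cluster at chromosome 17, 21008903 to 23599487, held 18 genes, 16 with a KRAB A box, and here 7 fell (Zfp948, Zfp229, Zfp820, Zfp942, Zfp758, Zfp40 and Zfp13) and Zfp52 rose, by 0.35 ± 0.05. The 7 are 38.9% of its genes, beside 34.4% of other genes weighted to its levels, and the 1 is 5.56%, beside 24.8%. After quantile normalization 7 of its genes were lower and 3 higher, and the weighted shares of other genes were 28.3% and 30.4%. Zfp820, at 628 to 829 reads per Atad2 library and 992 to 1189 per control library, changed by -0.37 ± 0.08. A second cluster on the same chromosome, at 32765496 to 33631779, had 4 higher (Zfp799, Zfp472, Zfp763 and Zfp81) and 1 lower (Zfp952) of 10, beside 25.6% and 34.6% of level-weighted other genes. At chromosome 7, 127233061 to 127885996, 5 of 10 rose (Zfp553, Zfp747, Zfp764, Zfp629 and Zfp668) and 0 fell, also after quantile normalization, beside 27.2% and 34.1% of level-weighted other genes as deposited. At chromosome 7, 12415153 to 12974236, 0 of 6 rose and 3 fell (Zfp329, Zfp110 and Zfp128), beside 25.8% and 34.3%, and after quantile normalization 2 fell. On chromosome 13, at 67121660 to 67755228, all 10 genes had a KRAB A box, and Zfp458 and Zfp595 fell and Zfp87 rose. Both shares were smaller than those of level-weighted other genes, of which 21.8% were higher and 37.0% lower. After quantile normalization 3 of the chromosome 13 cluster's genes were higher and 2 lower, beside 29.7% and 27.9%. These shares of few genes are given without a test. These cluster genes, apart from those chosen by size, were named after their values were seen. Neighbours share sequence, and 23 of the 255 genes share over 20% of their 50-base windows with other transcripts, of which 5 were higher and 4 lower. As shares these are 21.7% and 17.4%, beside 22.7% and 37.1% of level-weighted other genes. After quantile normalization 9 of the 23 were higher and 3 lower, beside 29.7% and 28.1%.

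**Figure D5:**
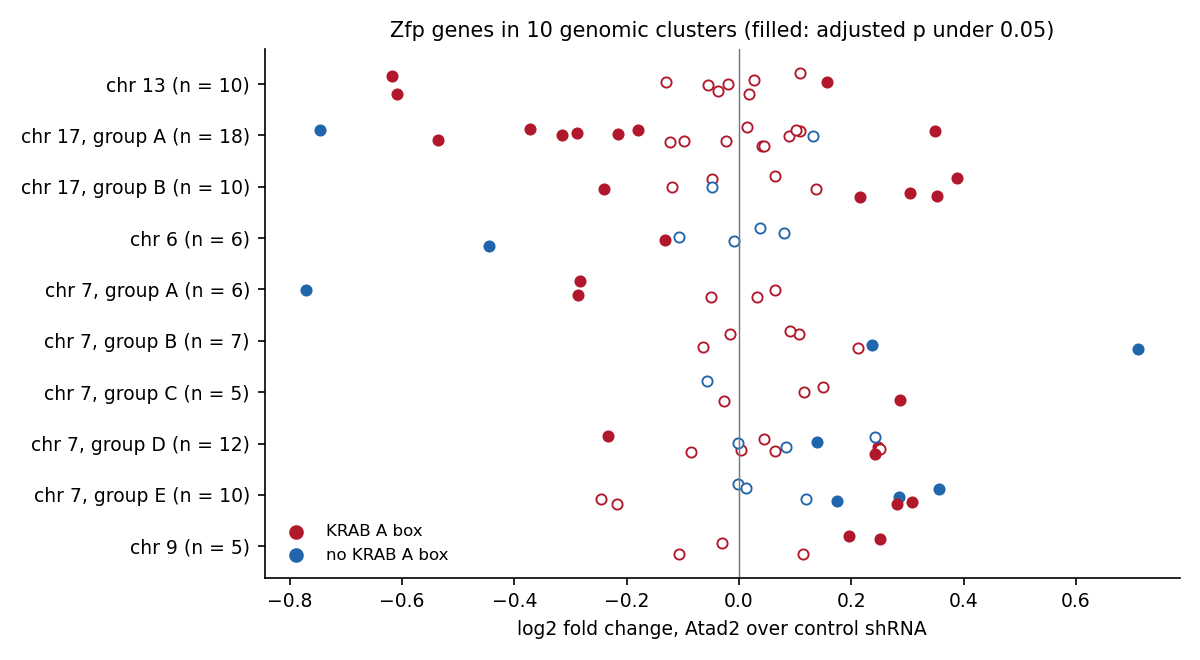
Log2 fold change, Atad2 over control shRNA (x axis), of the Zfp genes in 10 genomic clusters (y axis, named by chromosome), in red with and in blue without a KRAB A box, filled where the adjusted p was under 0.05; vertical scatter within a row has no meaning. The larger cluster on chromosome 17 (group A) has 7 filled points below 0 and 1 above, and group E on chromosome 7 has 5 above and 0 below, with the deposited values; after quantile normalization group A had 7 lower and 3 higher.

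Reads over whole classes moved little. The Zfp genes together took 0.749 to 0.775% of the reads in the Atad2 libraries and 0.733 to 0.766% in the control libraries, which overlap. KRAB genes took 0.210 to 0.222% in the Atad2 libraries and 0.221 to 0.237% in the control libraries, with the groups meeting at the edge. The other Zfp genes took 0.539 to 0.552% and 0.511 to 0.529% in the same order, without overlap. Such sums follow the strongest genes. Of these, Zfp703 held 10683 to 15273 reads per Atad2 library and 6271 to 7667 per control library, and Zfp706 12547 to 18012 and 11589 to 13359. How far single genes carry the class shares was not tested. Other zinc finger families above 8 showed mixed calls: 10 higher and 7 lower of 35 Zbtb genes, 2 and 4 of 14 Zkscan and Zscan genes, 8 and 5 of 17 Klf and Sp genes, and 7 and 5 of 20 Zfp genes with a letter suffix. Of other genes weighted to the Zbtb levels, 37.0% were higher and 27.9% lower. The weighted shares were 28.6% and 32.3% for Zkscan and Zscan, and 43.1% and 25.0% for Klf and Sp. For the Zfp genes with a letter suffix they were 32.3% and 30.7%. The family counts were not tested against these shares. The Klf and Sp genes were even at 6 and 6 after quantile normalization, and 5 and 6 after cyclic loess. Of 32 other genes above 8 with a KRAB A box, 7 were higher and 11 lower (21.9% and 34.4%), given without a level-weighted share.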

How the data were processed

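RNA from 8 libraries, 4 with an Atad2 shRNA and 4 with a non-targeting shRNA, was analysed. The submitters' processing notes name build mm10, HTSeq 0.13.5, SAMtools 1.1, bcl2fastq 2.20 and DESeq2 without a version, but no aligner, annotation or strand setting (not given in the sources used here). Overlapping genes are therefore uncertain. The authors deposited 35976 genes as log2(normalized count + 1) with 3 decimals. A step per library gave whole reads for 100% of low values (tolerance 0.1), which served for depth, read ranges and voom. Libraries were grouped by their labels, and no 2 libraries of a group agreed within sampling noise.

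The test was limma's (version 3.58.1, R 4.3.3; lmFit, eBayes with trend, no covariates) on genes with a mean above 3, two-sided, with Benjamini-Hochberg adjustment over all 14703 genes; every adjusted p in the text is from this fit unless another setting is named. A log2 fold change on this scale understates changes of weak genes. The procedure was tested on simulated data. Tables and plots were made in Python 3.11.15 with NumPy 2.4.6, pandas 2.3.3 and matplotlib 3.10.9.

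A KRAB A box was called where a window of the translated GENCODE M21 coding sequence (GRCm38, the assembly mm10 names) matched at least 70% of 30 scored positions. RefSeq proteins had been planned, and GENCODE sequences took their place. Coordinates come from GENCODE and promoters, as the first start listed per gene, from RefSeq.

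The genes and lists were chosen with earlier results of these data known. The text names Atad2, the 8 largest called increases and 12 largest decreases without overlap, the 4 highest mean levels, 3 genes on each side of the limit, a list of Zfp genes with known roles and up to 8 corepressors by adjusted p. Alternatives were other filters, offsets, scalings, variance priors and thresholds, library weights, voom, a replicate block, leaving out each library, other limits on the mean and a KRAB limit of 55%. Leaving out genes with shared windows was chosen after seeing the data.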

Additional observations from a re-analysis of the deposited data

Results flagged for a closer look

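Of 114 groups of 4 libraries checked for the 57 Zfp genes named by the rule, 3 had a library far from the other 3; chance flags about 1 in 20 such groups. Zfp57 stood at 9.951 in Atad2 replicate 3, against 9.729 to 9.743 in the other Atad2 libraries, and Zfp318 at 11.879 in the same library, against 11.83 to 11.838. Zfp638 stood at 12.941 in Atad2 replicate 4, against 13.023 to 13.035. Without Atad2 replicate 3, Zfp318 no longer passed. Atad2 replicate 3 had the lowest depth, 50.3 Mreads. Its part in these values was not tested.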

How the results depend on the processing

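The counts of Zfp genes higher and lower stayed within 1.5 times of 74 and 44 under each alternative run, at 68 to 77 and 39 to 44 when a library was left out and 59 and 32 at an adjusted p under 0.01. Quantile normalization gave 94 and 43 and cyclic loess 90 and 43. The median log2 fold change of 0.05 was 0.083 under quantile normalization and 0.081 under cyclic loess, more than the spread between libraries (0.02), and 0.04 to 0.07 without a library. KRAB genes higher went past 1.5 times, with 45 under quantile normalization and 44 under cyclic loess in place of 21; this count was added after seeing the data. The cause was not tested. Leaving out genes with shared windows gave 69 higher and 40 lower. Same-numbered libraries did not deviate together (r = -0.023 to 0.034), which cannot show whether they were made as pairs. The replicate block gave 76 higher and 45 lower.

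Of 38 named Zfp genes called, 29 passed under all 20 alternatives and 9 lost the call under at least 1; 6 not called passed under quantile normalization or cyclic loess; 0 reversed. Zfp148, Zfp335, Zfp462, Zfp644, Zfp664 and Zfp775 lost it under quantile normalization and cyclic loess, and Zfp106 under cyclic loess. Zfp318 lost it under 6 alternatives and Zfp638 under 10, including leaving out Atad2 replicates 1, 2 or 3 or control replicates 1 or 4 for Zfp638, and Atad2 replicate 3 or control replicate 4 for Zfp318. Adjusted p reached 0.52 for Zfp318 and 0.80 for Zfp638. Depth limits the weakest genes, where the median SE was 0.11 between levels 8 and 9 and 0.04 above 12.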
